A study of Mus musculus with 15 samples.

Results

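The promoters of the STAT transcription factors were followed through ChIP-MNase maps of nucleosome occupancy in mouse dendritic cells (DCs) and in 3T3 cells, an immortalised mouse fibroblast line. The promoters were chosen by name: every annotated transcription start site (TSS) whose RefSeq transcript belongs to Stat2, Stat3, Stat4, Stat5a, Stat5b or Stat6 was taken, and alternative promoters were kept apart. This gave 8 promoters of 6 genes, out of 25881 promoters in the maps, and 6 of the 8 were among the 13559 high coverage promoters with more than 100 fragments near the TSS. Stat4, with a coverage of 87 fragments, and Stat6, with 74.5 fragments, fell below this minimum and are described without tests.

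In ChIP-MNase, an antibody first pulls down large pieces of fixed chromatin, and micrococcal nuclease then removes the DNA not protected by nucleosomes. Antibodies to H3K4me1, a histone mark of promoters and enhancers, gave 12 of the 15 libraries. DCs, differentiated in vitro from bone-marrow progenitor cells with GM-CSF, were non-stimulated or received LPS at 100 ng/ml for 1 h, and fibroblasts were non-stimulated or received TNF-α at 5 ng/ml for 1 h. Each of these 4 states is given as 1 pooled set in which the authors joined 2 replicates. A further 8 H3K4me1 libraries are single replicates of fibroblasts, 2 for each of 4 groups: control cells and BAF knock-down cells, each non-stimulated or with TNF-α as above. The knock-down cells carried a retroviral vector with a U6 promoter driving 1 short hairpin RNA against a sequence shared by Brg1 and Brm, the catalytic subunits of the BAF chromatin remodelling complex, and were sorted for high GFP. Occupancy of promoters holds no measure of these transcripts, so the knock-down could not be checked here. Finally, 2 libraries were made with an antibody to pol-II S7P, a modification of transcribing RNA polymerase II, and 1 library with an antibody to pol-II S5P, which marks initiation, all 3 from TNF-α-stimulated fibroblasts.

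STAT proteins wait in the cytoplasm, are phosphorylated by JAK kinases bound to cytokine receptors, pair up and enter the nucleus to bind DNA. Stat2 acts with a partner STAT and Irf9 downstream of type I interferon, Stat3 downstream of IL-6 and IL-10, Stat4 downstream of IL-12 and Stat6 downstream of IL-4 and IL-13. Stat5a and Stat5b are closely related, lie side by side in the genome and serve GM-CSF, IL-2, prolactin and growth hormone. The DCs were cultured with GM-CSF, but STAT activity in them was not measured here. Promoters of active genes commonly hold a nucleosome-depleted region (NDR) just upstream of the TSS, flanked by positioned nucleosomes called −1 and +1.

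The STAT promoters fall into 3 places of the mm9 genome. On chromosome 11 the Stat5b, Stat5a and Stat3 genes lie together, with TSSs on the minus strand at 100683884 and 100711899 for Stat5b, on the plus strand at 100720665 and 100721798 for Stat5a, and on the minus strand at 100800825 for Stat3. Stat5b transcript NM_001113563 starts at the outer TSS, here the main Stat5b start, whereas NM_011489 starts 28015 bp further into the gene, at a point that the annotation places inside a Stat5b transcript and outside its exons, here the internal Stat5b start. Stat5a transcript NM_011488 starts 1133 bp upstream of NM_001164062, so the windows of the upstream and the downstream Stat5a start overlap and share part of their values. The main Stat5b start and the upstream Stat5a start, which read away from each other, are 8766 bp apart. Stat2 (NM_019963, 127707632) and Stat6 (NM_009284, 127080042) both lie on the plus strand of chromosome 10, 627590 bp apart, and Stat4 (NM_011487) starts on the plus strand of chromosome 1 at 52065088.

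A CpG island (CGI) promoter had over 50% G and C and more than 0.6 of the CpG dinucleotides that its base composition would give, within 200 bp of the TSS, which held for 56.2% of high coverage promoters. The Stat2 promoter (GC 64.1%, CpG ratio 0.887), the Stat3 promoter (64.1%, 0.698), the downstream Stat5a start (69.6%, 0.848) and the main Stat5b start (80.0%, 1.08) were CGI promoters. The other 4 were not: the upstream Stat5a start (52.4%, 0.188), the internal Stat5b start (51.6%, 0.416), Stat4 (48.4%, 0.171) and Stat6 (58.4%, 0.558). Both Stat5 genes therefore have 1 start within an island and 1 outside. The sequences upstream of these starts show it, each read from mm9 starting 200 bases before the TSS and ending before any base that the annotation places in an exon, 5′ to 3′ on the gene's strand, with CG dinucleotides in capitals. The first covers chr11:100712039-100712099 (61 bases, 11 CG), the second chr11:100683885-100684084 (200 bases, 4 CG), the third chr11:100721598-100721658 (61 bases, 9 CG), the fourth chr11:100720465-100720664 (200 bases, 3 CG) and the last chr11:100800855-100801025 (171 bases, 8 CG).
Stat5b, main start: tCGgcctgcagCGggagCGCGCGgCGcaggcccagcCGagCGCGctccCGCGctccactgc
Stat5b, internal start: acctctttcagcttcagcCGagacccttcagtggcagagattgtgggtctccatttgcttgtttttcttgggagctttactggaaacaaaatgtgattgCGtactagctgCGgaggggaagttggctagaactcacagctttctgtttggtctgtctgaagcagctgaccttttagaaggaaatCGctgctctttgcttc
Stat5a, downstream start: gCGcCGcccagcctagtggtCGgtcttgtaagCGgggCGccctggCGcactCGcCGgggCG
Stat5a, upstream start: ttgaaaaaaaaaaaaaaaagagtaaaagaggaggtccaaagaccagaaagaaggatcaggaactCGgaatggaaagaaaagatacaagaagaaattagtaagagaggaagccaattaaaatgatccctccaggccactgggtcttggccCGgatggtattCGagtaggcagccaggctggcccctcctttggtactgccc
Stat3: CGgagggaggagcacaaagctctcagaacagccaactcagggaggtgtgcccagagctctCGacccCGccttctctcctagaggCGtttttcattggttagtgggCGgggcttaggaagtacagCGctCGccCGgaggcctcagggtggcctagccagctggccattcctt

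Motifs were searched on both strands from −250 to 49 bp of each TSS. The palindrome TTCNNNGAA, to which STAT dimers bind, was in 0 of the 8 promoters, and in 7.8% of all promoters with sequence. The core of the interferon-stimulated response element, a pair of GAAA 2 bases apart, or of TTTC on the other strand, was in 1 of the 8, Stat4, and in 3.47% of all promoters. In Stat4 it lies from −101 to −92 bp (chr1:52064987-52064996) and is in capitals in the 200 bases that end at the TSS, chr1:52064888-52065087. The core of the NF-κB site, GGG followed after 5 bases of any kind by CC, or GG and CCC spaced likewise, which can overlap, was in 6 of the 8, all but Stat3 and the internal Stat5b start, and in 56.1% of all promoters. These matches describe letters only.
Stat4: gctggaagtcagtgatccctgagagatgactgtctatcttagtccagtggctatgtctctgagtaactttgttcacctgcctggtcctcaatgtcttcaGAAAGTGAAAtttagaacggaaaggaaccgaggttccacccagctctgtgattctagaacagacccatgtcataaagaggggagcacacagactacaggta

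All occupancies below are relative: the deposited occupancy, already scaled by the authors to the surrounding 1 kb, divided by the library's mean over high coverage promoters, so that 1 is the mean of the library. The log2 NDR ratio compares mean relative occupancy from −150 to 0 bp with that from −1000 to −500 bp, after adding 0.1 to each, and negative values mean depletion next to the TSS. The patterning level follows the shape of the whole profile, as the sum over 200 bins of 10 bp of the occupancy times the mean profile of expressed fibroblast promoters, both centred. Where no fragment covers the NDR window, the ratio depends only on the flank and the added 0.1, and it lay between −3.98 and −3.28 at the STAT promoters. Read depth is unknown, since the values are a normalised signal. Bins with any signal made up 63.5% to 90.2% of bins by library, and across all high coverage promoters replicates 1 and 2 of a group differed in log2 NDR ratio by a median of 0.788 to 0.951 and correlated with r of 0.236 to 0.388 (13559 promoters of the same 2 libraries, given as a description). Single values of a promoter therefore carry a large error, and lower occupancy in every cell cannot be told apart from an absence in some cells.

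**Figure D1:**
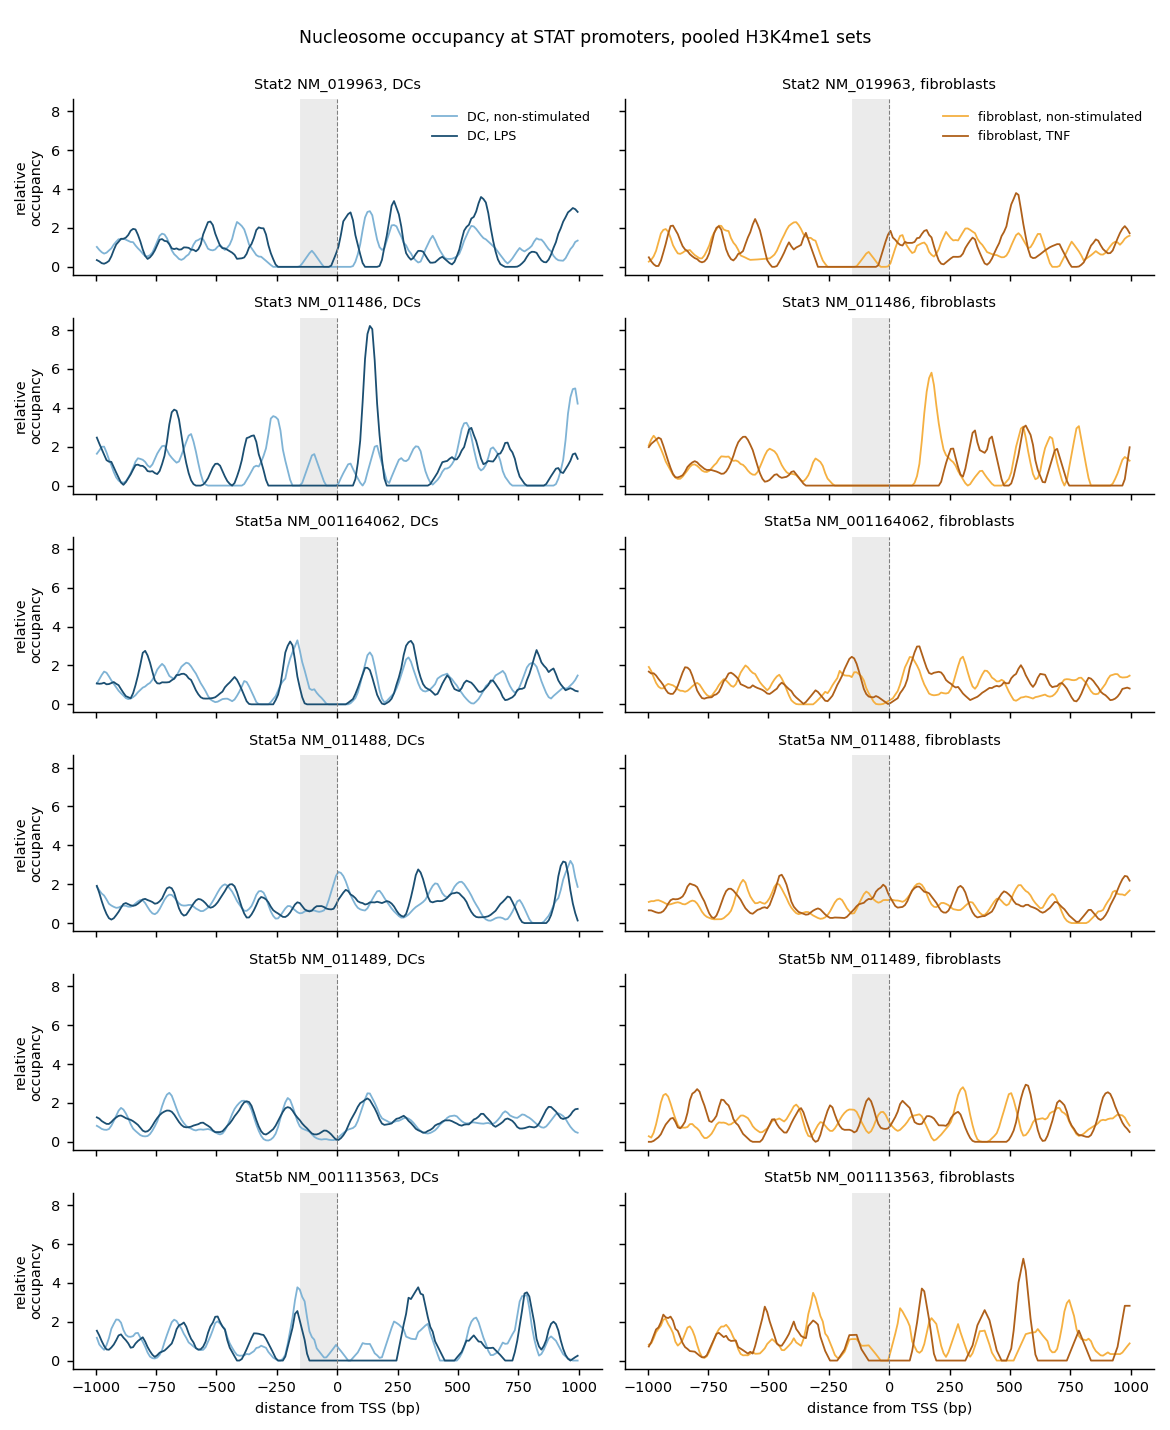
Relative nucleosome occupancy (vertical axis, multiples of the library mean) against distance from the TSS in bp (horizontal axis) at the 6 high coverage STAT promoters, in the pooled H3K4me1 sets of DCs (left) and fibroblasts (right); light lines are non-stimulated and dark lines stimulated cells, and the grey band is the NDR window. Occupancy at Stat3 is 0 across the band in both fibroblast sets and in LPS-treated DCs, whereas the upstream Stat5a start stays covered in all 4 sets.

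The STAT promoters differed widely in how open they were in fibroblasts, and each of the 4 CGI promoters had a lower mean than each of the other 4. Over the 10 fibroblast H3K4me1 libraries (8 single and 2 pooled), the Stat3 promoter was the most depleted, with a log2 NDR ratio from −3.85 through a median of −3.61 to 0.15 and a mean of −2.80 ± 1.45 (SD, n = 10). Its NDR window held no signal in 6 of the 10 libraries, while it stood at −0.62 in the first non-stimulated and 0.15 in the second TNF-α-stimulated control replicate. Of the 6 high coverage promoters, Stat3 also had the lowest coverage (201.75 fragments, the others 231.5 to 572.25). It had the fewest bins with signal in these libraries too (mean 63.4%, the others 72.75% to 87.95%). How far its rank follows from sparse signal was not tested. The main Stat5b start ranged from −3.73 to −0.43 with a median of −1.25 (mean −1.96 ± 1.47), below 0 in all 10 libraries.

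Stat2 lay between −3.77 and 0.36 with a median of −1.33 (mean −1.57 ± 1.58, SD, n = 10), and its NDR window was empty in 3 libraries. For the downstream Stat5a start the lowest, median and highest values were −3.98, −1.34 and 0.67 (mean −1.38 ± 1.35). These 4 CGI promoters each spread over more than 3 log2 units between libraries, and the high coverage starts outside islands over less than 3. Among the latter, the internal Stat5b start went from −2.41 through −0.13 to 0.21 (mean −0.38 ± 0.79) and the upstream Stat5a start from −1.29 through 0.21 to 0.90 (mean 0.13 ± 0.66), so that on average the region before the upstream Stat5a start was about as occupied as its flank.

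Among the low coverage promoters, Stat6 ranged from −1.48 to 0.56 with a median of 0.15 (mean −0.27 ± 0.77) and Stat4 from −1.15 to 0.86 with a median of −0.21 (mean −0.15 ± 0.73). Neither showed a depleted region that held across libraries. For comparison, the median over expressed high coverage promoters in non-stimulated fibroblasts (above 0.02 times the mean expression) was −1.46 with a CpG island and −0.39 without one, and −0.11 over promoters whose transcript is listed at 0.

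**Figure D2:**
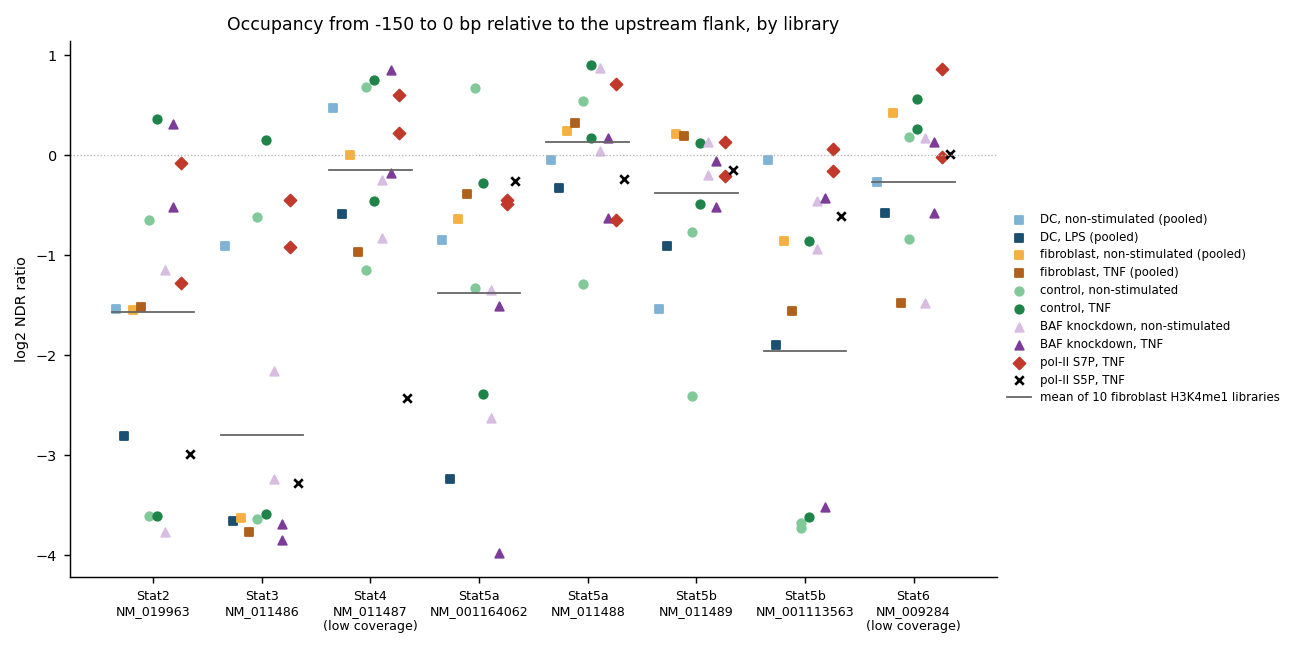
Log2 NDR ratio (vertical axis, log2 units) of the 8 STAT promoters (horizontal axis) in each of the 15 libraries; symbols and colours give the group and the horizontal bar the mean of the 10 fibroblast H3K4me1 libraries. Values of the CGI promoters reach down to −3.98, while the internal Stat5b and upstream Stat5a starts keep to between −2.41 and 0.90.

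The 6 high coverage promoters were compared in all 15 pairs by an exact two-sided paired permutation test over the same 10 libraries, which mix stimulation and knock-down states, with Benjamini-Hochberg adjustment over the 15 pairs. The test was chosen after these values were seen. Of the 15 pairs, 6 passed an adjusted p of 0.05, and all 6 set a CGI promoter against a start outside islands, of 8 pairs of that kind. None of the 7 pairs within a class passed. The main Stat5b start lay below the internal start of the same gene by 1.59 ± 1.20 on the log2 scale (SD of the difference, n = 10), in 9 of 10 libraries (adjusted p = 0.0195, exact permutation test).

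For Stat5a, the downstream start minus the upstream start gave −1.52 ± 1.40 with 9 of 10 libraries lower (adjusted p = 0.0195, exact permutation test), although their windows overlap. Stat3 was below the upstream Stat5a start in 10 of 10 libraries, by a mean difference of −2.94 ± 1.25 (adjusted p = 0.0146, exact permutation test). In these fibroblast libraries each STAT gene with 2 annotated starts thus had its lower mean ratio at the start inside the CpG island. For Stat5b the order was the opposite in non-stimulated DCs, at −0.05 for the main and −1.53 for the internal start, and in the first S7P replicate, at 0.06 and −0.21. For Stat5a it was the opposite in the second S7P replicate, at −0.49 for the downstream and −0.65 for the upstream start. The remaining passing pairs were Stat3 with the internal Stat5b start (−2.42, 8 of 10 libraries lower), Stat2 with the upstream Stat5a start (−1.70, 9 of 10) and the upstream Stat5a start with the main Stat5b start (2.10, 10 of 10 higher). No neighbours in the order of means differed beyond their spread. From Stat3 upward, their adjusted p-values in the exact permutation test were 0.374 for Stat3 and the main Stat5b start, 0.640 for the latter and Stat2, 0.801 for Stat2 and the downstream Stat5a start, 0.107 for that start and the internal Stat5b start, and 0.0645 for the last 2. All 6 pairs passed again without any 1 of the 10 libraries, but 0 of 15 passed with the 8 single libraries alone. There the same 6 differences had adjusted p-values of 0.0586 to 0.0781 by the same exact permutation test. The smallest p that this test can reach is 0.00195 with 10 libraries and higher with 8. Failing with 8 therefore does not show that the differences are absent.

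The 2 starts of Stat5b and of Stat5a also differ in the expression deposited with the promoters, which comes from RNA-seq of non-stimulated cells and not from these samples. It has no stated unit, and its mean differed 31.5-fold between the cell-types, so that a multiple of the mean ranks promoters within a cell-type and does not measure a change between them. As multiples of the mean over all promoters, in DCs the main Stat5b start stood at 0.421 and the internal one at 0.221, and the downstream Stat5a start at 0.552 against 0.0808 for the upstream one. In fibroblasts the same pairs were 0.0625 and 0.0135, and 0.0295 and 0.00356. The CGI start had the higher value in all 4 comparisons. Stat2 was at 2.08 in DCs and 0.19 in fibroblasts and Stat6 at 1.77 and 0.342, while Stat3 (0.121 in DCs) and Stat4 (0.142) are both listed at 0 in fibroblasts. Among the STAT promoters, the lowest mean ratio in fibroblasts, at Stat3, thus belongs to a transcript listed at 0 there. The score differs between starts of the same gene, and NM_011486 is the only Stat3 transcript listed. A score of 0 for this transcript therefore does not show that the Stat3 gene is silent in these fibroblasts.

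LPS asks what happens to these promoters when DCs meet a bacterial product. With 1 pooled set per state there is no replicate check and no test. In single libraries, the 2 replicates of a fibroblast H3K4me1 group differed in log2 NDR ratio by 0.16 to 3.74 at Stat3. They differed by 0.83 to 3.97 at Stat2, 0.05 to 3.09 at the main Stat5b and 1.28 to 2.47 at the downstream Stat5a start. Bins with signal made up 90.2% in the non-stimulated and 86.0% in the LPS set. The 4 CGI promoters had less occupancy before the TSS in the LPS set than in the non-stimulated set. Stat3 went from a log2 NDR ratio of −0.91 in non-stimulated to −3.66 in LPS-treated DCs, a difference of −2.75, with a relative NDR occupancy of 0.587 before and 0 after. The downstream Stat5a start stood at −0.84 and −3.24 (difference −2.39), with occupancies of 0.608 and 0.0278.

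At the main Stat5b start the values were −0.05 and −1.90 (difference −1.85), and at Stat2 −1.54 and −2.81 (difference −1.27). Thus 4 of the 6 high coverage STAT promoters were more than 1 log2 unit lower after LPS, against 19.5% of all high coverage promoters, and 0 of 6 were more than 1 unit higher, against 13.7%. All 4 are CGI promoters, a class in which 25.9% were lower by that much, and 11.4% of promoters outside islands. The upstream Stat5a start (−0.05 and −0.33) and the internal Stat5b start (−1.53 and −0.91) kept within 1 unit. Stat6 (−0.27 and −0.58) did too, and Stat4 went from 0.47 to −0.59, at low coverage. The count depends on how the NDR is measured: 2 of 6 were more than 1 unit lower with a window from −200 to 50 bp (12.4% of all promoters), and 3 of 6 with 0.5 added in place of 0.1 (7.5%).

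The shape of the profile did not follow the NDR everywhere. Stat3 had a patterning level of 5.90 in non-stimulated and 27.4 in LPS-treated DCs, the latter at the 99.8th percentile of high coverage promoters, and its relative occupancy from 50 to 200 bp, where the +1 nucleosome lies, was 0.941 and 3.58. At Stat2 the level was instead 9.95 before and −1.72 after LPS, although its NDR ratio was lower. The downstream Stat5a start (7.98 and 10.3) and the main Stat5b start (−1.29 and 4.03) were slightly higher after LPS. No replicate error is available for these differences, and replicates of fibroblast H3K4me1 groups differed by a median of 5.57 to 6.20 in patterning level.

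**Figure D3:**
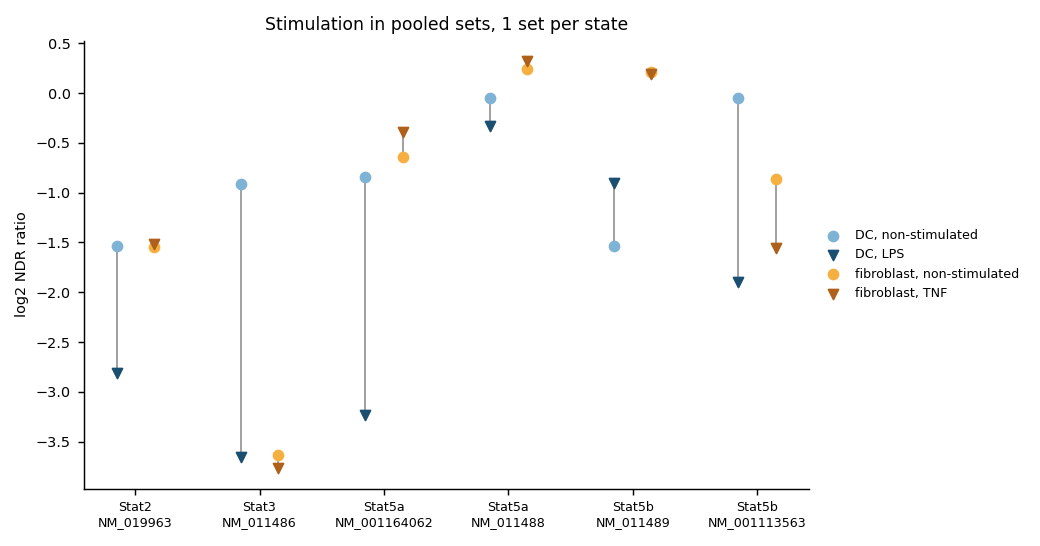
Log2 NDR ratio (vertical axis, log2 units) of the 6 high coverage STAT promoters (horizontal axis) in pooled H3K4me1 sets, with circles for non-stimulated and triangles for stimulated cells, 1 set per state. The 4 CGI promoters stand lower in LPS-treated than in non-stimulated DCs, with differences from −2.75 to −1.27, whereas fibroblasts with TNF-α differ from non-stimulated ones by −0.69 to 0.25.

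TNF-α in fibroblasts was measured in pooled sets and again in single libraries. In the pooled sets, 0 of 6 high coverage STAT promoters differed by more than 1 unit in either direction, where 21.7% of all promoters were lower and 14.3% higher by that much. At Stat3 (−3.63 and −3.77) the NDR window was empty in both sets, so no lower occupancy could be seen there. The largest difference was at the main Stat5b start, from −0.86 to −1.55. Stat6, at low coverage, stood at 0.42 and −1.48. In the 8 single libraries, limma with stimulation and knock-down as terms called 0 of 6 STAT promoters and 0% of all 13559 at an adjusted p of 0.05. At an unadjusted p below 0.05 there were 0 of 6, and 5.69% of all.

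Stat2, the interferon signalling partner, had the largest TNF-α estimate, 1.43 ± 1.19 (SE, adjusted p = 0.923, limma). Its values were −0.65 and −3.61 in the non-stimulated control replicates and −3.61 and 0.36 in the stimulated ones, −1.15 and −3.77 in the non-stimulated knock-down replicates and −0.52 and 0.31 in the stimulated ones. The groups overlapped, and the control replicates with TNF-α lay 3.97 apart. The estimates of the other 5 ran from −0.88 (downstream Stat5a start) to 0.57 (internal Stat5b start), each with a 95% confidence interval that holds 0. In patterning level, too, 0 of 6 passed (0% of all promoters), with estimates from −3.96 to 3.65. At none of the 6 did all 4 stimulated single libraries lie above or below all 4 non-stimulated ones, as they did at 0.959% (above) and 1.92% (below) of all promoters in NDR ratio and at 1.59% and 1.05% in patterning level.

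BAF is a remodeller that moves and evicts nucleosomes, and the knock-down addresses its role at these promoters. In log2 NDR ratio 0 of 6 were called (0% of all promoters, limma), and 0 of 6 had an unadjusted p below 0.05 (5.16% of all). The main Stat5b start read −3.68 and −3.73 in non-stimulated and −0.86 and −3.62 in TNF-α-stimulated control cells, and −0.46 and −0.94 and then −0.43 and −3.52 in knock-down cells. Its estimate was 1.64 ± 1.01 (SE), with a 95% confidence interval from −0.77 to 4.05 (adjusted p = 0.923, limma). The NDR window held no signal in 3 of 4 control and 1 of 4 knock-down libraries. In the pooled fibroblast sets, which have no knock-down and are outside this fit, the main Stat5b start read −0.86 non-stimulated and −1.55 with TNF-α. The downstream Stat5a start had the lowest estimate, −1.54 ± 0.83, with control values of 0.67, −1.33, −0.28 and −2.39 and knock-down values of −1.35, −2.63, −1.51 and −3.98.

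The patterning level of Stat3, the target of IL-6 signalling, showed the clearest separation between single control and knock-down libraries. It was 3.50 and 2.23 in non-stimulated and 6.32 and −2.90 in TNF-α-stimulated control replicates, and 16.6 and 13.3 in non-stimulated and 8.67 and 12.9 in stimulated knock-down replicates. The pooled fibroblast sets, which have no knock-down and are outside this comparison, did not keep to the control range. They stood at 14.4 non-stimulated, within the knock-down range, and at 2.85 with TNF-α. All 4 knock-down libraries lay above all 4 control libraries, as they did at 1.45% of all high coverage promoters, and Stat3 was the only 1 of the 6 STAT promoters with such a separation (1.49% of all lay below, and in NDR ratio 1.36% above and 1.29% below). The estimate was 10.6 ± 2.70 (SE) with a 95% confidence interval from 4.18 to 16.9 and an unadjusted p = 0.00583 in limma, but it did not pass after adjustment over all promoters (adjusted p = 0.818, limma). Over the alternatives the estimate ran from 6.27 to 13.4 and the adjusted p in limma from 0.746 to 0.907. In patterning level 0% of all promoters were called and 5.85% had an unadjusted p below 0.05, against 1 of the 6 STAT promoters. The log2 NDR ratio of Stat3 stood at −0.62, −3.64, −3.59 and 0.15 in control and −2.16, −3.24, −3.69 and −3.85 in knock-down libraries, with an estimate of −1.31 ± 1.03 (adjusted p = 0.923, limma). The interaction of TNF-α with the knock-down was called at 0 of 6 STAT promoters (0% of all), in either measure, and 0 of 6 had an unadjusted p below 0.05 (6.03% of all in NDR ratio, 5.65% in patterning).

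**Figure D4:**
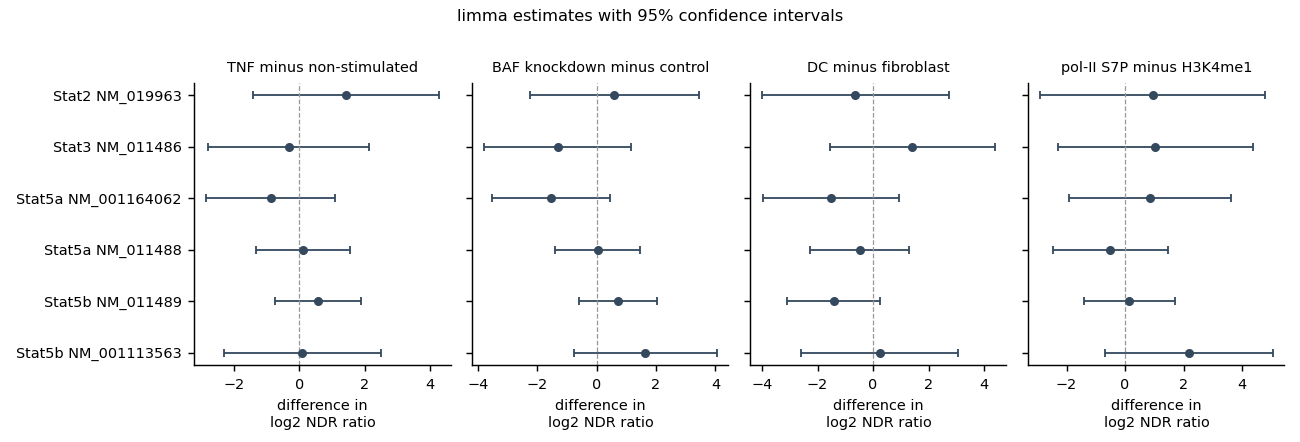
Estimates from limma (points) with 95% confidence intervals (bars) for the difference in log2 NDR ratio (horizontal axes, log2 units) at the 6 high coverage STAT promoters (rows), for 4 comparisons named above the panels. Every interval holds 0, from Stat5a downstream under knock-down (−3.51 to 0.44) to the internal Stat5b start between cell-types (−3.11 to 0.26).

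Cell-type markers were read from the same deposited expression, again as multiples of each cell-type's mean. It does not come from these samples, so it describes the annotation and cannot check the identity of the cells mapped here. All 13 promoters of 10 DC marker genes had a higher multiple of the mean in DCs (median 7.05) than in fibroblasts (median 0.00124, highest 0.0235), and 10 of 11 promoters of 10 fibroblast marker genes had a higher one in fibroblasts. In occupancy, the mean log2 NDR ratio of the 2 DC sets was below that of the 10 fibroblast libraries at 9 of 13 DC marker promoters and at 1 of 7 high coverage fibroblast marker promoters, where 46% of all promoters were. The internal Stat5b start was the only high coverage STAT promoter at which DC and fibroblast H3K4me1 values did not overlap, and this held for patterning level only. Its log2 NDR ratio was −1.53 in non-stimulated and −0.91 in LPS-treated DCs, against 0.21 and 0.19 in the pooled fibroblast sets, although single fibroblast libraries reached down to −2.41. Its patterning level was 10.7 and 8.53 in the 2 DC sets and −4.03 to 7.53 (median 2.94) over the 10 fibroblast libraries. Both DC sets thus lay above every fibroblast H3K4me1 library, as at 2.32% of all high coverage promoters, and no other high coverage STAT promoter did so. None lay below them in patterning level (1.73% of all), or above or below them in NDR ratio (1.71% and 1.95%).

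In limma, with pooling, stimulation and knock-down as further terms, the DC minus fibroblast difference at this start was 9.31 ± 4.48 (SE) in patterning level, with a 95% confidence interval from −0.42 to 19.03 and an unadjusted p = 0.0591. The difference in log2 NDR ratio was −1.42 ± 0.76, with an unadjusted p = 0.0889 in limma. None of the 6 STAT promoters was called in either measure, with 0% of all promoters called in NDR ratio and 0.0369% called higher and 0% lower in patterning level. None had an unadjusted p below 0.05, against 3.55% and 3.28% of all promoters. Stat3 went the other way between non-stimulated pooled sets, at −0.91 in DCs and −3.63 in fibroblasts (difference 2.72), past 1 unit as were 20.4% of all promoters in that direction and 16% in the other. After stimulation it was −3.66 and −3.77, and there Stat2 (−2.81 and −1.52), the downstream Stat5a start (−3.24 and −0.39) and the internal Stat5b start (−0.91 and 0.19) were more than 1 unit lower in DCs, 3 of 6 against 16.5% of all promoters, and 0 of 6 were more than 1 unit higher, against 22.5%. The count became 0 of 6 with the window from −200 to 50 bp and 1 of 6 with 0.5 added. DCs are present only as 2 pooled sets, so the spread in these fits comes almost wholly from fibroblasts.

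Pol-II S7P libraries show the nucleosomes of alleles in transcription, and pol-II S5P those at initiation. At the main Stat5b start the log2 NDR ratio was 0.06 and −0.16 in the S7P replicates and −0.61 in the S5P library. H3K4me1 libraries of fibroblasts with TNF-α gave −0.86 and −3.62 in control cells, −0.43 and −3.52 in knock-down cells and −1.55 in the pooled set, so that S7P lay above all 5 and S5P within their range. The S7P minus H3K4me1 estimate takes only the 2 control libraries with TNF-α as its reference. At the main Stat5b start it was 2.19 ± 1.20 (SE), the largest of the 6, with a 95% confidence interval from −0.67 to 5.05 (adjusted p = 0.652, limma). Stat3 read −0.92 and −0.45 with S7P and −3.28 with S5P, where the NDR window was empty. Stat2 was alike, at −1.28 and −0.08 with S7P and −2.99 with S5P. The S5P library was lower in general, with a median over high coverage promoters of −0.91, against −0.44 and −0.42 in the S7P replicates.

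For the downstream Stat5a start the values lay close together, at −0.44 and −0.49 with S7P and −0.26 with S5P. None of the 6 STAT promoters was called for S7P against H3K4me1 (0% of all promoters in both measures, limma), and 0 of 6 had an unadjusted p below 0.05, against 9.02% of all in NDR ratio and 7.83% in patterning level. The estimates in NDR ratio ran from −0.51 to 2.19 with a median of 0.90, where the median over all promoters was 0.18. Leaving out a replicate could change the sign at each of them except the main Stat5b start. Pol-II libraries were sequenced with paired ends and H3K4me1 libraries with single ends, so antibody and type of sequencing cannot be told apart. The reference libraries are also labelled as control fibroblasts of the knock-down and the pol-II libraries are not, which cannot be told apart from the antibody either.

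Nucleosome positions were taken as the first occupancy peak on each side of the TSS. Over the 10 fibroblast H3K4me1 libraries the median +1 position was 90 bp at Stat2, 110 bp at the downstream Stat5a start, 90 bp at the main and 95 bp at the internal Stat5b start, 125 bp at the upstream Stat5a start and 190 bp at Stat3. The Stat3 +1 peak thus lay furthest into the gene, between 95 and 325 bp. The −1 medians split by CpG class, with −325 bp at Stat3, −150 bp at Stat2 and −145 bp at both the downstream Stat5a and the main Stat5b start, against −65 bp at the internal Stat5b and −35 bp at the upstream Stat5a start. Stat4 (−65 and 90 bp) and Stat6 (−85 and 150 bp) resembled the latter. The distance between −1 and +1 follows the NDR ratio in part by construction, since both read the same window. In DCs the +1 peak of the internal Stat5b start was at 125 bp in both sets, while that of the main start was at 105 and 335 bp.

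At the upstream Stat5a start the −1 peak stood at −145 bp in all 3 pol-II libraries and between −95 and −25 bp in the 10 fibroblast H3K4me1 libraries. Pol-II peaks further upstream without overlap were found at 0.8% of high coverage promoters. The separation was lost with the weakest 40% of peaks left out in place of 20%, where the H3K4me1 peaks lay between −165 and −25 bp. Replicates of a group placed a peak 91.0 to 114 bp apart on average over high coverage promoters, more than most of these differences. The same setting moved the median +1 position of the upstream Stat5a start to 180 bp.

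**Figure D5:**
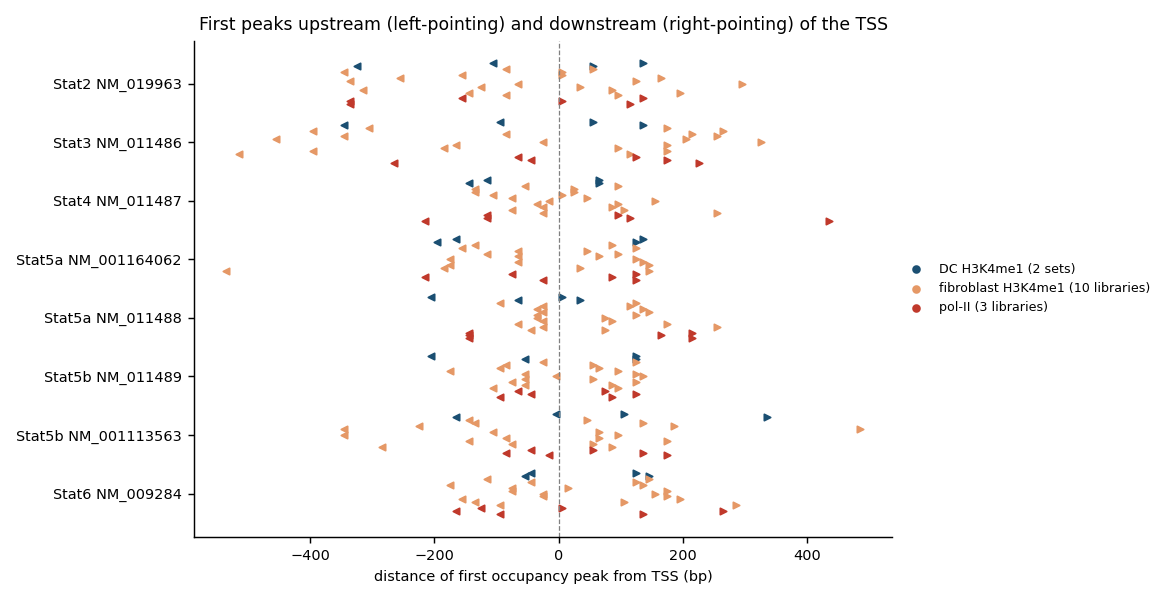
Distance from the TSS in bp (horizontal axis) of the first occupancy peak upstream (left-pointing) and downstream (right-pointing) of each STAT promoter (rows), 1 symbol per library, for 2 DC sets, 10 fibroblast H3K4me1 libraries and 3 pol-II libraries. Peaks of Stat3 in fibroblasts reach from −515 to 325 bp, while those of the internal Stat5b start keep between −175 and 135 bp.

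The other genes of the pathway were read from lists of kinases, receptors, inhibitors and partners or targets. Of their promoters, 39 of 30 genes had high coverage, and 0 of 39 were called in any of the 5 comparisons in either measure by limma (0% of all promoters, apart from 0.0369% called higher between cell-types in patterning level). In log2 NDR ratio, unadjusted p-values were below 0.05 at 2 of 39 for TNF-α (5.69% of all promoters), 6 of 39 for the knock-down (5.16%), 4 of 39 for the interaction (6.03%), 0 of 39 between cell-types (3.55%) and 3 of 39 for S7P against H3K4me1 (9.02%). Median differences over the 39 were −0.10, 0.01, −0.42, 0.23 and 0.30, beside −0.08, 0.00, −0.16, 0.08 and 0.18 over all promoters. In patterning level the same counts were 2 of 39 (5.71% of all promoters), 4 of 39 (5.85%), 6 of 39 (5.65%), 1 of 39 (3.28%) and 7 of 39 (7.83%).

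Under TNF-α the lowest values were those of Irf1, an interferon-responsive transcription factor (−1.59 ± 0.74, SE), and Il10ra, a chain of the IL-10 receptor (−1.54 ± 1.01), and the highest those of Jak2, the kinase of many Stat5-linked receptors (1.597 ± 0.54), and Ptpn1, a tyrosine phosphatase (1.23 ± 1.10). The pooled fibroblast sets had the opposite direction at Jak2 (−0.05 non-stimulated and −3.66 with TNF-α) and Ptpn1 (−1.40 and −2.37). They had the same direction at Il10ra (0.56 and −0.91). At Irf1 both values (−3.43 and −3.54) lay in the range that empty NDR windows gave at the STAT promoters, so no direction can be read there. With the knock-down, Il4ra, the receptor chain through which IL-4 reaches Stat6, stood at −3.11 ± 0.35 (unadjusted p = 6.26e-05, adjusted p = 0.160, limma). It was followed by Socs4, a member of the suppressor of cytokine signalling family (−2.72), and, upward, by Pias1, a protein inhibitor of STATs (2.39), and Jak2 (2.12). None of these passed the test.

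For the interaction the outermost were Ptpn11, a phosphatase (−6.41), Cish, a Stat5-induced inhibitor (−4.30), Nmi, which binds STATs (3.76), and Myc, a growth regulator (4.03). Between cell-types they were Il10ra (−2.51), Socs1 (−1.92), Jak2 (2.09) and Socs2 (2.14), the Socs proteins being inhibitors that STATs induce. For S7P against H3K4me1 they were another Socs2 start (−2.62), Il10ra (−2.41), Pias3, an inhibitor of Stat3 (3.18), and Lifr, the receptor of leukaemia inhibitory factor, which acts through Stat3 (3.35). Il10ra was among the lowest in 3 of the 5 comparisons and Jak2 among the highest in 3, and these comparisons share libraries.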

How the data were processed

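Nucleosome occupancy was analysed in 15 ChIP-MNase libraries of mouse DCs and 3T3 fibroblasts, grouped by their labels. Before depositing them, the authors aligned reads to mm9 with bowtie (the submitters' processing notes list Bowtie2 and bedtools), removed excess duplicates, counted fragments per 10 bp relative to the surrounding 1 kb and averaged neighbouring values. What they deposited is a signal in 200 bins within 1000 bp of each TSS, with no read counts, and empty bins were read as 0. The deposited promoter annotation gives a coverage score in fragments and expression in non-stimulated cells, a score without a stated unit that the methods relate to FPKM of public RNA-seq, so it was divided by the mean of each cell-type, and between cell-types only these multiples were set side by side. It also holds the authors' log2 differences of array expression on stimulation, which were not used.

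RefSeq transcripts were matched to symbols through a RefSeq table (96.3% of promoters matched), and positions and sequences were read from the mm9 genome and its annotation. Relative occupancy, log2 NDR ratio (0.1 added), patterning level (fibroblast template for all libraries) and peaks (the weakest 20% left out) were computed per library with numpy 2.4.6, pandas 2.3.3 and scipy 1.17.1. The tests of stimulation, knock-down, interaction, cell-type and antibody were fitted over all 13559 promoters with coverage above 100 using limma 3.58.1 in R 4.3.3, with Benjamini-Hochberg adjustment at 0.05, after a trial on simulated data. The study describes its replicates as independent samples, but the labels do not name separate cultures, and p-values measure the spread between these libraries. Pooled sets were compared without a test. All STAT promoters are named. Pathway genes are named where a promoter passed the test, and otherwise as the 2 largest effects in each direction per comparison, given for log2 NDR ratio. The members, lists and tests were chosen with earlier results of these data known. Alternatives were another scaling, flank, window, pseudocount, coverage minimum, template and prominence, the replicate block, square roots, subsets of libraries and each replicate left out.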

Additional observations from a re-analysis of the deposited data

How the results depend on the processing

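For the STAT promoters' own limma estimates, 174 alternative values had the same direction and the same side of the threshold and 11 had the opposite sign, and 246 and 20 when a replicate was left out. No STAT promoter was called under any alternative. The opposite signs were, for TNF-α, Stat3 at 1.59 and the main Stat5b start at −1.24 with replicate 2 libraries alone, the upstream Stat5a start at −0.11 with the window from −200 to 50 bp, and the main Stat5b start at −0.50 in patterning level from square roots. For the knock-down they were Stat2 at −0.11 with replicate 2 libraries alone, the upstream Stat5a start at −0.0206 with the wider window and −0.0020 with 0.5 added, and the internal Stat5b start at −0.00062 with the wider window. For S7P they were the downstream Stat5a start at −0.0184 and the internal Stat5b start at −0.12 with the wider window, and the latter at −0.16 with the downstream flank. Leaving out replicates, TNF-α estimates ran from −1.23 to 0.27 at Stat3, −0.41 to 0.44 at the upstream Stat5a start and −0.73 to 0.99 at the main Stat5b start, and knock-down estimates from −0.39 to 1.37 at Stat2 and −0.49 to 0.36 at the upstream Stat5a start. Cell-type estimates ran from −1.85 to 0.57 at Stat2 and −0.66 to 1.13 at the main Stat5b start, and S7P estimates from −1.04 to 2.93 at Stat2, −0.83 to 2.91 at Stat3, −0.19 to 1.92 at the downstream and −1.19 to 0.18 at the upstream Stat5a start, and −0.16 to 0.45 at the internal Stat5b start.

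Counts of promoters called over the whole table moved from 0 to 8 for TNF-α in NDR ratio with no coverage minimum, to 3 with the wider window and over 0 to 2 leaving out replicates (2 without the first control replicate with TNF-α). They moved to 1 for the interaction with the wider window, to 54 and 9 between cell-types with no minimum and with the wider window, and to 49 for S7P with no minimum. In patterning level the 5 called between cell-types became 10 with no minimum, 84 with occupancies as deposited, 0 with square roots, 0 with the 4 pooled sets alone and 0 to 7 leaving out replicates, with 0 without each of the 4 pooled sets, the first non-stimulated control replicate or either first knock-down replicate, and 7 without the second knock-down replicate with TNF-α. Promoter by promoter, deviations of same-numbered libraries correlated at −0.0173 to 0.0284 in NDR ratio and −0.00894 to 0.0138 in patterning level over 10 pairs of groups. Such a correlation cannot see a shift of a whole library. Bins with signal were fewer in replicate 2 than in replicate 1 of each single H3K4me1 group. In control cells they were 69.7% against 74.9% non-stimulated and 63.5% against 73.4% with TNF-α. In knock-down cells they were 67.9% against 78.1% and 68.3% against 76.0%. With S7P the order was the opposite, at 80.0% against 69.2%. The replicate block gave 4 in place of 5 in the cell-type comparison of patterning levels and 0 in the other 9. The added alternatives, chosen after seeing the data, gave 0 of 15 pairs of STAT promoters with the 8 single libraries, where the smallest reachable p is higher than with 10. They gave 10 of 28 with all 8 promoters and 6 to 7 leaving out each library. With the 8 single libraries Stat2 minus the downstream Stat5a start was 0.0207, from −0.19. Numbers past 1 unit in pooled sets became 2 (LPS), 1 (non-stimulated cell-types) and 0 (stimulated cell-types) with the wider window and 1 (stimulated cell-types) with 0.5 added. The median +1 position of the upstream Stat5a start was 180 bp in place of 125 bp with 40% of peaks left out. The cause of these changes was not tested, apart from the coverage minimum and left-out libraries, which change what is fitted. Unknown depth and 2 libraries per group limit what single promoters can show.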

Other observations

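Promoters with profiles most like those of the STAT promoters were ranked by Pearson's r over the 200 bins of the mean of the 4 pooled sets, among high coverage promoters of other genes more than 5000 bp away. For Stat3 they were Zc3h18 (r = 0.717), D10Wsu102e (0.679) and Cdh24 (0.678), and for Stat2 Plau, the urokinase-type plasminogen activator (0.669), Siae (0.636) and Chst12 (0.626). The downstream Stat5a start was most like Rad52, a DNA repair gene (0.762), Npm3 (0.752) and Nhlrc3 (0.738), and the upstream one most like Dhcr7, an enzyme of cholesterol synthesis (0.734), Mir30d (0.673) and Mir688 (0.606). The main Stat5b start was closest to Chchd6 (0.670), Sh2d4a (0.645) and Dpm3 (0.643), and the internal one to Dhps (0.690), Tpgs1 (0.658) and Bphl (0.651). At low coverage, Stat4 was closest to Gm9199 (0.624), Hus1b (0.589) and Tbxa2r (0.577), and Stat6 to Sel1l (0.657), Dalrd3 (0.646) and Pank4 (0.638). These are the largest of 13132 to 13134 values each, from the same 4 sets.

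Among themselves the 8 STAT promoters were less alike, with r from −0.19 (upstream Stat5a and main Stat5b start) to 0.48 (internal Stat5b start and Stat6). The 2 starts of Stat5b had an r of −0.04 and those of Stat5a, whose windows overlap at a shift of 1133 bp, −0.06. Stat2 and Stat3 reached 0.40.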
